A study of Mus musculus with 308 samples.

Results

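Jejunum, the middle segment of the small intestine, was compared between 7 arrays of C57Bl/6 mice titled Nav and 8 arrays of C57Bl/6 mice of the vehicle group. These are 15 of the 43 jejunum arrays and 15 of the 308 arrays of the series, and they were taken by their titles. All genes with a named probe set that passed a filter on low values were tested, which gave 10847 genes of 17097.

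The series profiled tissues of mice dosed once daily for 10 days and sampled 12 h after the last dose, on Affymetrix mouse arrays. The vehicle group received 0.8% hydroxypropyl methylcellulose. The other jejunum groups received DMF (dimethyl fumarate) at 100 mg/kg (6 arrays) or 179.2 mg/kg (7 arrays), a mixture of calcium, magnesium and zinc MEF salts at 79.2 mg/kg (7 arrays), or both, at 100 mg/kg of DMF and 79.2 mg/kg of the salts (8 arrays). For Nav the labels give the strain and the tissue, but no agent, dose, vehicle or sampling time, and the meaning of the name was not worked out. Age, sex, batch and any pooling of animals are not given in the sources used here. The arrays of a group carry numbers in their titles, and p-values measure only the spread between these arrays, which may in part be technical.

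The jejunal lining is renewed from crypts and consists mainly of absorptive enterocytes, with smaller numbers of mucus-secreting goblet cells, hormone-secreting enteroendocrine cells, antimicrobial Paneth cells and chemosensory tuft cells. Its cells carry a circadian clock, in which the activators Arntl, Clock and Npas2 drive their own repressors (the Per and Cry genes) and output factors such as Dbp, so that Arntl and Dbp peak at opposite phases of the day. Secretory and absorptive cells also depend on chaperones of the cytosol and of the endoplasmic reticulum, and NRF2 is the transcription factor that switches on detoxification genes in response to electrophiles such as fumarates.

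The tissue label was checked against markers. Of the 16 enterocyte markers of the jejunum, the 14 measured each had a mean percentile of 95.8 or more among the probe sets of an array, and their mean log2 level per array was 12.98 to 13.23 in Nav and 12.91 to 13.24 in vehicle. Of 15 markers of stomach and duodenum, 5 (Gkn1, Gkn2, Cblif, Atp4a and Pgc) were at the lowest value of the table in 15 of 15 arrays, and the others lay above it in 1 array or more, such as the hormone Ghrl at a mean of 7.60. Markers of fat (Fabp4 at 11.98, Adipoq at 9.57), of colon (Car4 at 11.14) and of exocrine pancreas (Clps at 10.73) were measured as well, and none of those tested was called. Markers of the ileum were measured too and varied between arrays: the bile acid binding protein Fabp6 ran from 3.71 to 13.68 in Nav and from 7.93 to 13.30 in vehicle. None of the 14 jejunal and 11 ileal markers passed the test between the groups.

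In all, 854 of the 10847 genes tested (7.87%) differed between Nav and vehicle in limma at a Benjamini-Hochberg adjusted p below 0.05. Of these, 550 were higher in Nav (5.07% of the genes tested) and 304 were lower (2.8%). The differences were small: their median size was 0.34 on the log2 scale, and 84 called genes (0.774%) reached 1.5-fold. The 7 Nav and 8 vehicle arrays did not overlap for 112 genes (1.03%), of which 101 were called. At an unadjusted p below 0.05 there were 2860 genes (26.4%).

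**Figure D1:**
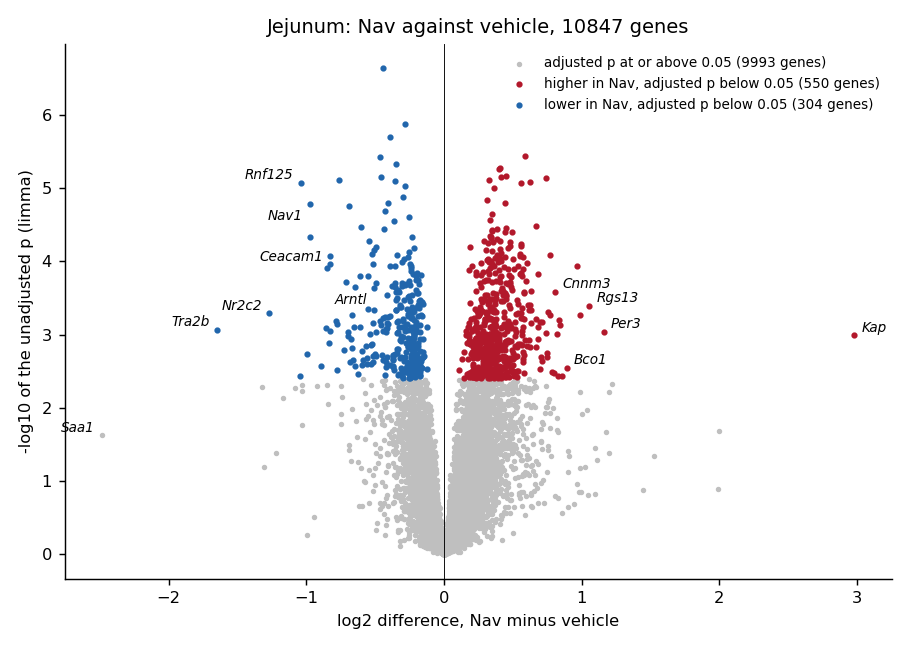
Each point is 1 of 10847 genes, placed by its log2 difference (Nav minus vehicle, 7 and 8 arrays) and the -log10 of its unadjusted limma p. The 550 higher and 304 lower genes with an adjusted p below 0.05 are coloured, and most of them lie within 1 log2 unit of 0.

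The arrays of the groups also differed in transcripts that do not come from the mice. The 18 probe sets for the hybridisation controls, which are bacterial and phage transcripts added in the laboratory, had a mean log2 level of 11.88 ± 0.06 (SD, n = 7) in Nav and 12.00 ± 0.02 (SD, n = 8) in vehicle. The highest Nav array (11.96) lay below the lowest vehicle array (11.97), with an exact two-sided permutation p of 0.00031 and an adjusted p of 0.00062 over 4 array measures. Nav arrays were also less alike than vehicle arrays: their mean correlation with the arrays of their own group was 0.982 against 0.989, again without overlap. This was 1 of the 4 measures, but its values share pairs of arrays within a group. A permutation of these values cannot test the spread, so its p is not given. The array medians and the gap between 3' and 5' probes of housekeeping transcripts, a sign of RNA quality, did not pass (adjusted p = 0.573 and 0.305, exact permutation).

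With the hybridisation controls as a covariate, 0 genes were called in limma (smallest adjusted p = 0.131, and 1543 genes at an unadjusted p below 0.05). The median size of the 854 differences then went from 0.34 to 0.256, and their standard errors grew by a median factor of 1.3. Because the controls separate the groups, the group and this property of the arrays cannot be told apart. That holds for every call given here between Nav and vehicle in jejunum, and the controls were not examined in the other tissues. In the fumarate groups the controls had means of 11.83 to 11.94, also below the vehicle mean. The calls against the same vehicle arrays were 108 for DMF 100 (0.996%), 2969 for DMF 179.2 (27.4%), 12 for MEF salts (0.111%) and 416 for the combination (3.84%). These groups differ in agent and dose as well, and whether the control level bears on the counts was not tested. Single arrays also moved the count: it was 298 without Nav replicate 47, 330 without vehicle replicate 1 or 2, 365 without vehicle replicate 3, and 411, 450 and 494 without Nav replicate 45, 44 and 43. Leaving out vehicle replicate 6 also lowered it by over 1.5 times, as the plot of calls by setting shows. It was highest, at 1150, without Nav replicate 41.

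**Figure D2:**
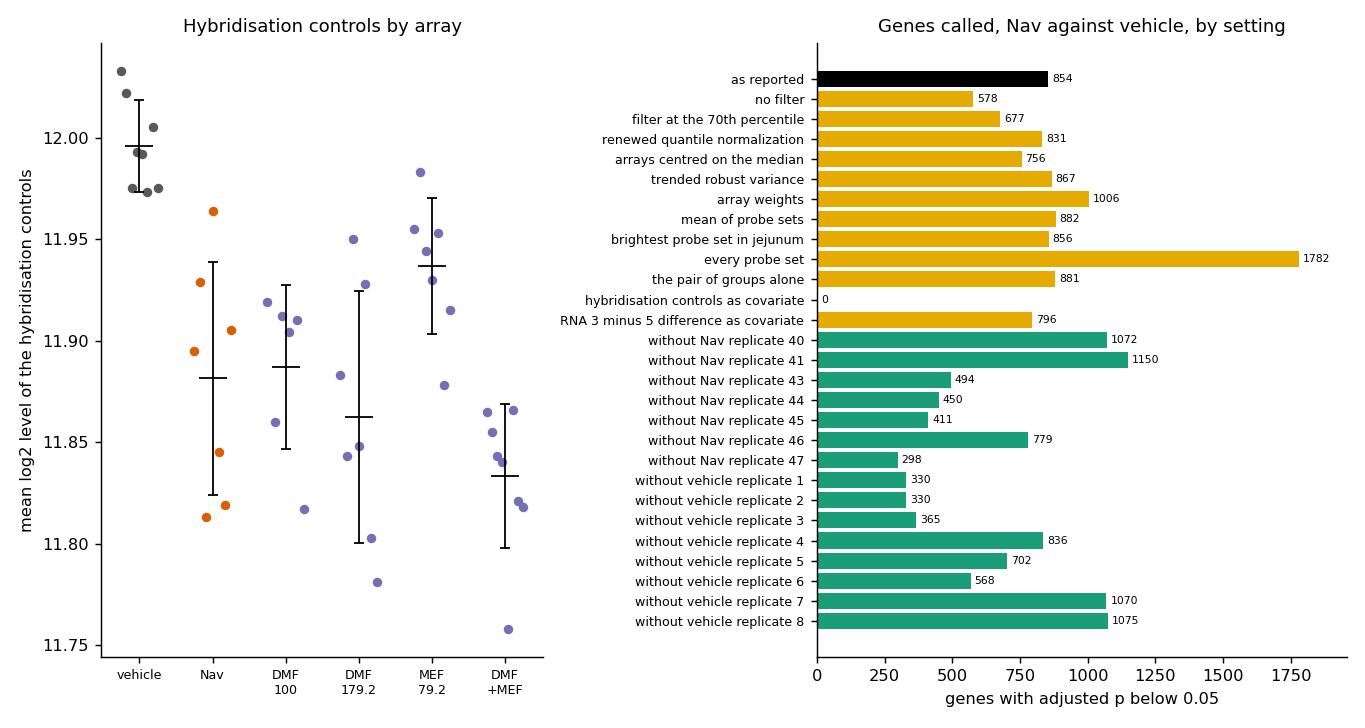
The left panel gives the mean log2 level of the hybridisation controls in each jejunum array, with the mean and SD of each group, and all vehicle arrays lie above all Nav arrays. The right panel gives the number of genes called between Nav and vehicle under each setting, from 0 with the hybridisation controls as a covariate to 1782 when every probe set is tested on its own.

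Clock genes differed in both directions. Of 17 clock genes tested, 2 rose (Per3 and Usp2) and 2 fell (Arntl and Npas2), which is 23.5% of the list against 7.87% of all genes. The 2 that fell encode activators, and the 2 that rose a repressor and an output.

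Windows around the RefSeq start sites (GRCm38.p6, 250 bases before to 50 after) of the called clock genes and of Dbp were searched for clock motifs. They are shown for the genes that held a motif of clock factors, Per3, which rose, and Arntl, which fell. Capitals mark the D-box TTATGNAA, which Dbp and its relatives bind, in Per3, and the core AGGTCA of the element bound by ROR and REV-ERB receptors in Arntl.
Per3, chr4:151044616-151044915, minus strand: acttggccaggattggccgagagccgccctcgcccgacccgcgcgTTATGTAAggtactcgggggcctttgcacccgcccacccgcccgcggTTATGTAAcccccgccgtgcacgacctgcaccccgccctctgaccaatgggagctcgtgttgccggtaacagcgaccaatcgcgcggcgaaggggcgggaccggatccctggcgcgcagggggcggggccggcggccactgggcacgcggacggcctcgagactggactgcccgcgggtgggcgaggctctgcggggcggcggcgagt
Arntl, chr7:113207261-113207560, plus strand: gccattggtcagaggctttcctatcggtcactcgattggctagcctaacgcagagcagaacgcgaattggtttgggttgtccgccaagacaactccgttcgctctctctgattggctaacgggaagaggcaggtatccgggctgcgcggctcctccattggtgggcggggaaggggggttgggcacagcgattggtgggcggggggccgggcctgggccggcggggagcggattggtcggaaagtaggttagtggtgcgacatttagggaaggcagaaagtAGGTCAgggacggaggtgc
The motifs were searched on both strands, together with the E-box CACGTG, and the matches did not overlap each other. Per3 held the D-box at 2 places, positions -205 and -158 from the start site. Of 32851 promoter windows, 3.38% hold a D-box, 16.3% the AGGTCA core and 7.15% an E-box. A further window of Arntl, upstream of this one, holds none of the 3 motifs, and the windows of Npas2, Usp2 and Dbp hold none either. The other clock genes were not searched, and whether the motifs go with the differences was not tested.

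Arntl (BMAL1), the core activator of the clock, had a lowest, median and highest log2 level of 8.24, 8.58 and 8.83 in Nav and of 8.43, 9.14 and 9.63 in vehicle. It fell by 0.51 ± 0.13 (SE) in limma (adjusted p = 0.0155). Every Nav array lay below the vehicle median, while vehicle replicates 4 and 7 lay within the Nav range. Its partner Npas2 measured 10.74, 10.88 and 11.03 in Nav and 10.94, 11.21 and 11.40 in vehicle. Npas2 fell by 0.30 ± 0.07 (adjusted p = 0.0146), with 5 of 7 Nav arrays below all vehicle arrays.

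Per3, a repressor gene that follows the clock closely, measured 8.21, 8.93 and 9.91 in Nav and 6.80, 7.71 and 9.33 in vehicle. It rose by 1.16 ± 0.32 (adjusted p = 0.0259), a 2.23-fold change, though the groups overlapped and 1 Nav array lay above all vehicle arrays. Usp2, a deubiquitinase whose transcript is a clock output, measured 10.71, 11.08 and 11.15 in Nav against 10.29, 10.75 and 10.89 in vehicle, and rose by 0.30 ± 0.08 (adjusted p = 0.0228). Dbp, the output factor that binds the D-box, measured 4.95, 5.88 and 6.87 against 3.33, 4.76 and 7.18, a difference of 1.22 ± 0.41 that did not pass (adjusted p = 0.0551).

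The vehicle arrays did not form a uniform group for these genes. Vehicle replicates 1, 2 and 3 had the lowest Per3 levels of the group (6.80, 6.88 and 7.24) and the lowest Dbp levels (3.33, 3.72 and 3.59). Vehicle replicate 7 had the highest Per3 (9.33) and Dbp (7.18) and the lowest Arntl (8.43) of its group. Without vehicle replicate 1 or 3, 0 clock genes were called higher and 2 lower, and without vehicle replicate 7 there were 4 and 2. Arntl and Npas2 were called with each of the 15 arrays left out in turn, whereas Usp2 was lost without Nav replicate 44 or 47 or vehicle replicate 1 or 3. Per3 was lost without vehicle replicate 1, 2 or 3 and with the mean of its probe sets (0.40 ± 0.17, adjusted p = 0.109). Usp2 was lost with the mean of its probe sets too (0.12 ± 0.09, adjusted p = 0.362). With Nav and vehicle fitted alone, neither Per3 (adjusted p = 0.0512) nor Usp2 (adjusted p = 0.0621) passed.

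The other clock genes that did not pass lay between -0.34 ± 0.21 (Nfil3, a repressor at the D-box, adjusted p = 0.309) and 0.48 ± 0.19 (Nr1d2, a repressor of Arntl, adjusted p = 0.0959). The repressor Cry1 was at -0.34 ± 0.16 (adjusted p = 0.17), Per2 at 0.09 ± 0.23 and Clock, the other partner of Arntl, at 0.00 ± 0.05.

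**Figure D3:**
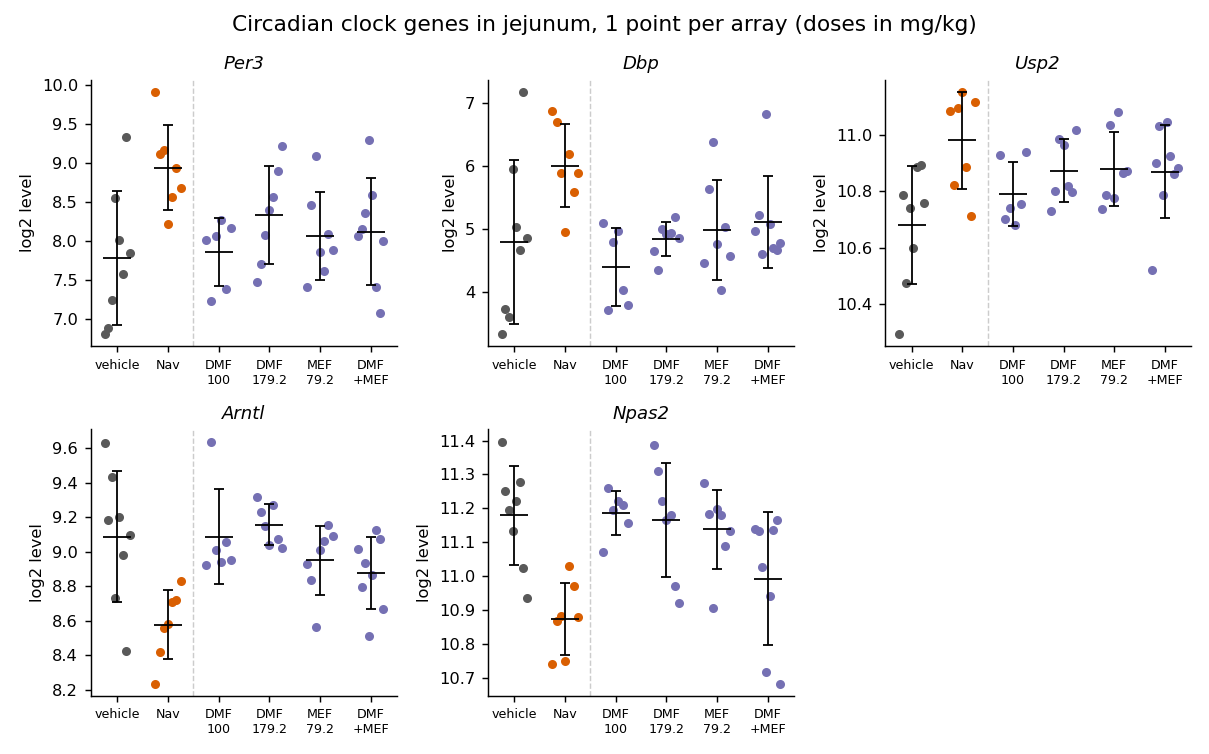
Log2 levels of 5 clock genes in the 43 jejunum arrays, 1 point per array, with the mean and SD of each group, and vehicle and Nav left of the dashed line. Arntl and Npas2 are lowest in Nav and Per3, Dbp and Usp2 highest, by their means over the 6 groups, while vehicle arrays spread widely for Per3 and Dbp.

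A further comparison set Nav against the mean of the 4 fumarate groups, with the vehicle arrays used only for the filter and the shared variance. Arntl, Npas2 and Per3 were picked because the same Nav arrays differed from vehicle. That draws Nav towards the end of the range, so the comparison is not independent of the one with vehicle. Arntl was lower in Nav by -0.44 ± 0.10 (adjusted p = 0.0063, limma) and Npas2 by -0.25 ± 0.06 (adjusted p = 0.0097). Per3 was higher by 0.85 ± 0.26 (adjusted p = 0.0366) and Dbp by 1.18 ± 0.33 (adjusted p = 0.0228). The mean Arntl level was 8.58 in Nav, 9.09 in vehicle and 8.88 to 9.16 in the fumarate groups, so Nav was at the end of the range.

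Clock genes were read in other tissues of the Nav and vehicle groups as well. Over all genes, 49.8% were called in kidney and 50.6% in the mesenteric node. In kidney, Nav against vehicle gave -0.43 ± 0.12 for Arntl (adjusted p = 0.0038), -0.95 ± 0.17 for Npas2 (adjusted p = 2.3e-05), 0.76 ± 0.18 for Per3 (adjusted p = 0.00057) and 1.41 ± 0.30 for Dbp (adjusted p = 0.00017). Per3 rose in the mesenteric lymph node, spleen and brain too, by 0.33 to 0.57 in the lymphoid tissues and 0.22 in brain. It did not pass in inguinal node or blood. In spleen, Arntl (-0.17 ± 0.07, adjusted p = 0.080, limma), Npas2 (-0.24 ± 0.14, 0.24) and Dbp (0.15 ± 0.14, 0.46) did not pass. Neither Arntl nor Dbp passed in brain, inguinal node or blood. In the mesenteric node, Npas2 fell by 0.53 ± 0.14 (adjusted p = 0.0015) and Dbp rose by 0.55 ± 0.13 (adjusted p = 0.00066), while Arntl was at 0.04 ± 0.06 (adjusted p = 0.61). The difference between jejunum and node, paired by replicate number, was -0.55 ± 0.14 for Arntl (adjusted p = 0.0070) and 0.16 ± 0.14 for Npas2, which did not pass (adjusted p = 0.382).

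Several tuft cell markers were higher in Nav. Of 15 markers on the array, 8 passed the filter on low values, which the high Nav arrays could help them pass, and the other 7 were not tested. Of the 8, 4 rose, Rgs13, Sh2d6, Dclk1 and Avil, where 5.07% of all genes did. Tuft cells sense luminal parasites and metabolites and release interleukin 25. In whole tissue, a larger number of cells of a type and more RNA per cell cannot be told apart.

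Rgs13, a regulator of G protein signalling found in tuft cells but also in germinal centre B cells and mast cells, measured 5.16, 6.11 and 8.42 in Nav and 5.23, 5.39 and 5.54 in vehicle. It rose by 1.06 ± 0.27 (2.08-fold, adjusted p = 0.0198). In 6 of 7 Nav arrays it lay above all vehicle arrays, with Nav replicates 44 (8.42) and 45 (7.53) the highest and replicate 40 (5.16) below all of vehicle. Sh2d6, an adaptor protein gene, measured 5.08, 6.02 and 7.68 in Nav and 4.63, 5.33 and 5.64 in vehicle, and rose by 0.99 ± 0.26 (adjusted p = 0.0217).

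Dclk1, the kinase most used to stain tuft cells, measured 7.72, 8.19 and 9.64 in Nav and 7.36, 7.57 and 8.13 in vehicle. It rose by 0.76 ± 0.20 (adjusted p = 0.0211), and 4 of 7 Nav arrays lay above all vehicle arrays, but the mean of its probe sets did not pass (0.38 ± 0.13, adjusted p = 0.0567). Avil, an actin-binding protein of the tuft, measured 6.53, 6.89 and 8.42 against 6.35, 6.63 and 6.70, and rose by 0.50 ± 0.15 (adjusted p = 0.0371). The succinate receptor Sucnr1 was at 0.66 ± 0.22 (adjusted p = 0.053), the taste channel Trpm5 at 0.29 ± 0.14 (0.18), the interleukin 25 receptor Il17rb at 0.26 ± 0.14 (0.23) and the taste receptor Tas1r3 at -0.07 ± 0.03 (0.15).

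These calls rested on 2 arrays. The mean log2 level of the 8 tuft markers was 7.41 in Nav replicate 44 and 6.78 in replicate 45, 5.71 to 6.31 in the other 5 Nav arrays, and 5.64 to 5.98 in vehicle. Without Nav replicate 44, 0 of the 8 were called, and likewise without Nav replicate 45. With Nav and vehicle fitted alone, 0 of the 6 then tested were called (adjusted p = 0.0621 for Sh2d6 and Dclk1, 0.0826 for Rgs13 and 0.15 for Avil). With the hybridisation covariate the differences were at least as large as without it (1.18 for Rgs13, 1.16 for Sh2d6, 0.76 for Dclk1 and 0.73 for Avil) but did not pass (adjusted p = 0.175 to 0.205).

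B cell genes were high in some of the same arrays. The mean level of 17 B cell and plasma cell markers was 8.04, 8.07 and 8.27 in Nav replicates 43, 44 and 45, 5.77 to 6.29 in the other 4 Nav arrays and 5.82 to 7.38 in vehicle. Ms4a1 (CD20) ran from 2.25 to 9.32 in Nav and from 2.18 to 7.65 in vehicle, and Spib, a factor of B cells and M cells, from 5.56 to 9.08 against 5.35 to 7.62. Neither passed (adjusted p = 0.324 and 0.224). The 2 members of the list that fell (11.8%, where 2.8% of all genes fell) were the plasma cell regulators Prdm1 (-0.50 ± 0.15, adjusted p = 0.036) and Xbp1, which other secretory cells express too. They went against most of the list: 14 of the 17 differences were above 0, with a median of 0.67, as were 6504 of the 10847 over all genes. Of the 9 markers of lymphoid follicles 0 were called, where 7.87% of all genes were, and 8 of the 9 differences were above 0. The part of lymphoid tissue in the Rgs13 result was not tested.

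**Figure D4:**
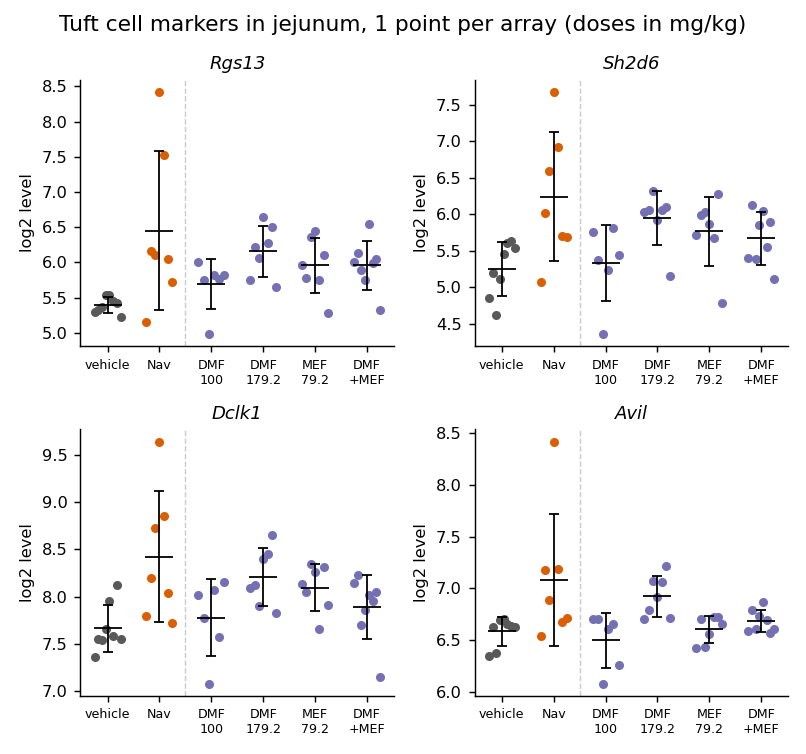
Log2 levels of the 4 called tuft cell markers in the 43 jejunum arrays, 1 point per array, with the mean and SD of each group. Nav replicates 44 and 45 are the upper 2 Nav points for each of Rgs13, Sh2d6, Dclk1 and Avil, and the Nav means are the highest of the 6 groups.

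Against the mean of the fumarate groups, of the 4 genes Avil passed (0.41 ± 0.12, adjusted p = 0.0338, limma), while Rgs13 was at 0.51 ± 0.22 (adjusted p = 0.13), Sh2d6 at 0.56 ± 0.21 (0.0853) and Dclk1 at 0.43 ± 0.16 (0.0835). Nav minus vehicle for Rgs13 was -0.54 ± 0.40 in the mesenteric node, and the jejunum difference departed from it by 1.61 ± 0.54 (paired by replicate number, adjusted p = 0.0295).

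Of 18 enteroendocrine markers, 2 rose (11.1%, where 5.07% of all genes rose). They were Neurod1, a factor of endocrine differentiation (0.31 ± 0.10, adjusted p = 0.0425), and the hormone Sst (0.49 ± 0.15, adjusted p = 0.0448). For Neurod1 the lowest Nav array (7.69) lay just above the highest vehicle array (7.68). With each of the 15 arrays left out in turn, Neurod1 was called 6 times and Sst 5 times. No marker of goblet cells (11 tested), Paneth cells (6), crypt stem cells (17), smooth muscle (14), enteric neurons and glia (13), fibroblasts and endothelium (17), macrophages and dendritic cells (17) or exocrine pancreas (7) was called. Over all genes 7.87% were called, so 0 calls in such short lists says little about each cell type. Prf1, the pore-forming protein of cytotoxic lymphocytes, was the 1 called gene of 15 T and NK cell markers (6.67%, where 2.8% of all genes fell). It measured 7.86, 8.14 and 8.34 in Nav and 8.37, 8.59 and 8.73 in vehicle, fell by 0.46 ± 0.09 (adjusted p = 0.0052) with no overlap, and was lower than in the fumarate groups as well (-0.37 ± 0.07, adjusted p = 0.00095). Its other probe set was not lower at an unadjusted p below 0.05. The granzymes Gzma (-0.15 ± 0.40) and Gzmb (-0.25 ± 0.47) did not pass.

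A few chaperone genes were lower in Nav. Among 19 heat shock chaperone genes, not all of them cytosolic, 3 fell and 0 rose (15.8%, where 2.8% of all genes fell). Hsp90aa1, the stress-inducible HSP90, measured 9.59, 9.74 and 10.16 in Nav and 10.02, 10.40 and 11.20 in vehicle, and fell by 0.69 ± 0.14 (1.61-fold, adjusted p = 0.0074). Of the Nav arrays, 5 lay below all vehicle arrays, and vehicle replicates 1 and 2 were the highest (11.07 and 11.20). Serpinh1, the collagen chaperone HSP47, measured 7.89, 8.17 and 8.48 against 8.35, 8.83 and 9.27, and fell by 0.61 ± 0.15 (adjusted p = 0.0134). Dnajb4, a co-chaperone of HSP70, fell by 0.32 ± 0.09 (adjusted p = 0.0289), but the mean of its probe sets did not pass (-0.12 ± 0.06, adjusted p = 0.205). The constitutive Hspa8 (0.02 ± 0.04), the mitochondrial Hspe1 (-0.05 ± 0.06) and Dnaja1 (0.01 ± 0.06) did not pass. Hsp90aa1 and Serpinh1 were called with each array left out in turn, and Dnajb4 in 10 of 15 such fits.

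Among 37 genes of the unfolded protein response and ATF4 programme, 5 fell and 0 rose (13.5%, where 2.8% of all genes fell). Differences were below 0 for 26 of the 37, as they were for 4340 of the 10847 over all genes. Hsp90b1 (GRP94), a chaperone of secreted and membrane proteins, measured 11.13, 11.20 and 11.37 in Nav and 11.32, 11.52 and 11.94 in vehicle, and fell by 0.33 ± 0.09 (adjusted p = 0.0245). Manf, a secreted stress-response protein, measured 10.43, 10.67 and 10.84 against 10.69, 11.08 and 11.55, and fell by 0.45 ± 0.12 (adjusted p = 0.0259). The disulfide isomerase Pdia6 fell by 0.37 ± 0.12 (adjusted p = 0.0419), the transcription factor Xbp1 by 0.24 ± 0.07 (0.0245) and the serine synthesis enzyme Psph by 0.22 ± 0.07 (0.043). The main chaperone Hspa5 (-0.12 ± 0.08), Atf4 (0.02 ± 0.05) and Ddit3 (-0.04 ± 0.09) did not pass. Without vehicle replicate 2 or 3, 0 of the 37 were called, and without Nav replicate 44 or 45 or vehicle replicate 1, 2 were.

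The promoters of Hsp90b1 and Pdia6 hold the endoplasmic reticulum stress element (ERSE), to which ATF6 binds with NF-Y. It is in capitals here, and 0.119% of the 32851 promoter windows hold it on either strand.
Hsp90b1, chr10:86705395-86705694, minus strand: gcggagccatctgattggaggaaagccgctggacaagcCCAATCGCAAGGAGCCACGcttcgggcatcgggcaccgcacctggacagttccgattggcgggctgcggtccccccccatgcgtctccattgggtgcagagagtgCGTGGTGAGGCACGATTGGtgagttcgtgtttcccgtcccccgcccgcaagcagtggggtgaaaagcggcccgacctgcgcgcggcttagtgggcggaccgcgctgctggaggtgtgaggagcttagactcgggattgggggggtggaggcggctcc
Pdia6, chr12:17266339-17266638, plus strand: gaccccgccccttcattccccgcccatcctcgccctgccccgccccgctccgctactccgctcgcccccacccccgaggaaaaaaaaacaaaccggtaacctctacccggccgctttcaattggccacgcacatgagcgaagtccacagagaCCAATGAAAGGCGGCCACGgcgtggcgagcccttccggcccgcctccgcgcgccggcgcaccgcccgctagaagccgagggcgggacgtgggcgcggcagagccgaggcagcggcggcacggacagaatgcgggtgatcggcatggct
Hsp90b1 has it at 2 places, of which the one nearer the start site is on the opposite strand, and Pdia6 at 1. The windows of Xbp1 and Psph hold none, and Manf has no entry in the table. Only called genes of this list were searched, and the share over all windows is not a share over genes of this response. Whether the motif goes with the fall was not tested.

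Against the fumarate groups, Hsp90aa1 (-0.46 ± 0.12, adjusted p = 0.0105, limma) and Dnajb4 (-0.34 ± 0.07, adjusted p = 0.0046) were lower in Nav, and Serpinh1 (-0.19 ± 0.12), Hsp90b1 (-0.20 ± 0.07) and Manf (-0.27 ± 0.10) did not pass. In kidney, Hsp90aa1 fell by 0.35 ± 0.06, Serpinh1 by 0.33 ± 0.11 and Hsp90b1 by 0.60 ± 0.08, while Dnajb4 (-0.10 ± 0.07), Manf (-0.24 ± 0.17), Xbp1 (-0.13 ± 0.09) and Pdia6 (0.18 ± 0.08, adjusted p = 0.0514) did not pass. In the mesenteric node Pdia6 rose by 0.39 ± 0.07 (adjusted p = 2.1e-05), while Hsp90b1 fell by 0.67 ± 0.09 (adjusted p = 1.8e-07). Hsp90b1 fell in brain too, by 0.24 ± 0.06 (adjusted p = 0.026). Hsp90aa1, Serpinh1, Dnajb4, Manf and Xbp1 passed in neither of these tissues, and Pdia6 did not pass in brain. Over all genes, 19.8% were called lower in kidney, 29.8% higher and 20.8% lower in the node, and 3.83% in either direction in brain. For Hsp90aa1 the jejunum difference departed from that of kidney by -0.39 ± 0.13 (paired by replicate number, adjusted p = 0.0349), and for Hsp90b1, which fell further in kidney, by 0.25 ± 0.08 (adjusted p = 0.0307). For Pdia6 it departed by -0.62 ± 0.12 from kidney (adjusted p = 0.0014) and by -0.80 ± 0.10 from the node (adjusted p = 8.9e-05).

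NRF2 targets that were far higher in the groups given fumarates did not differ detectably between Nav and vehicle. Nqo1, a quinone reductase, measured 8.01, 8.20 and 8.60 in Nav and 7.96, 8.32 and 8.59 in vehicle, a difference of -0.05 (95% interval -0.28 to 0.17). The group means of the 4 fumarate groups were 8.96 to 10.23. The carbonyl reductase Cbr3 had a mean of 4.36 in Nav and 3.89 in vehicle (difference 0.47, interval -0.11 to 1.04), against 7.58 to 9.31 in the groups given DMF and 4.40 with MEF salts alone. The carboxylesterase Ces1g had means of 5.23 and 5.14 (interval of the difference -0.75 to 0.95) against 7.14 with MEF salts alone and 9.67 or more in the groups given DMF. The aldo-keto reductase Akr1b8, the glutathione transferase Gstm1 and the glucuronosyltransferase Ugt2b5 did not pass either, with differences of 0.22 ± 0.22, -0.01 ± 0.24 and 0.52 ± 0.28.

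A few NRF2 targets fell below vehicle: 3 of 42 were lower and 0 higher, with a median difference of 0.00. This is 7.14% of the list, where 2.8% of all genes fell and 7.87% were called in either direction. Gclc, the catalytic subunit that makes glutathione's precursor, measured 6.09, 6.88 and 7.73 in Nav and 7.29, 7.59 and 7.82 in vehicle. It fell by 0.65 ± 0.16 (1.56-fold, adjusted p = 0.0153), with 6 of 7 Nav arrays below all vehicle arrays and Nav replicate 40 at 7.73. Srxn1 (sulfiredoxin) fell by 0.24 ± 0.06 (adjusted p = 0.0127) and Taldo1, a pentose phosphate enzyme, by 0.19 ± 0.05 (adjusted p = 0.0146). These 3 were called with each array left out in turn. Against the fumarate groups, whose Gclc means were 7.69 to 8.31, Nav differed by -1.08 ± 0.13 (adjusted p = 1.81e-07, limma). Txnrd1 (-0.11 ± 0.04), Gclm (-0.08 ± 0.14) and Gsr (-0.05 ± 0.06) did not pass.

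**Figure D5:**
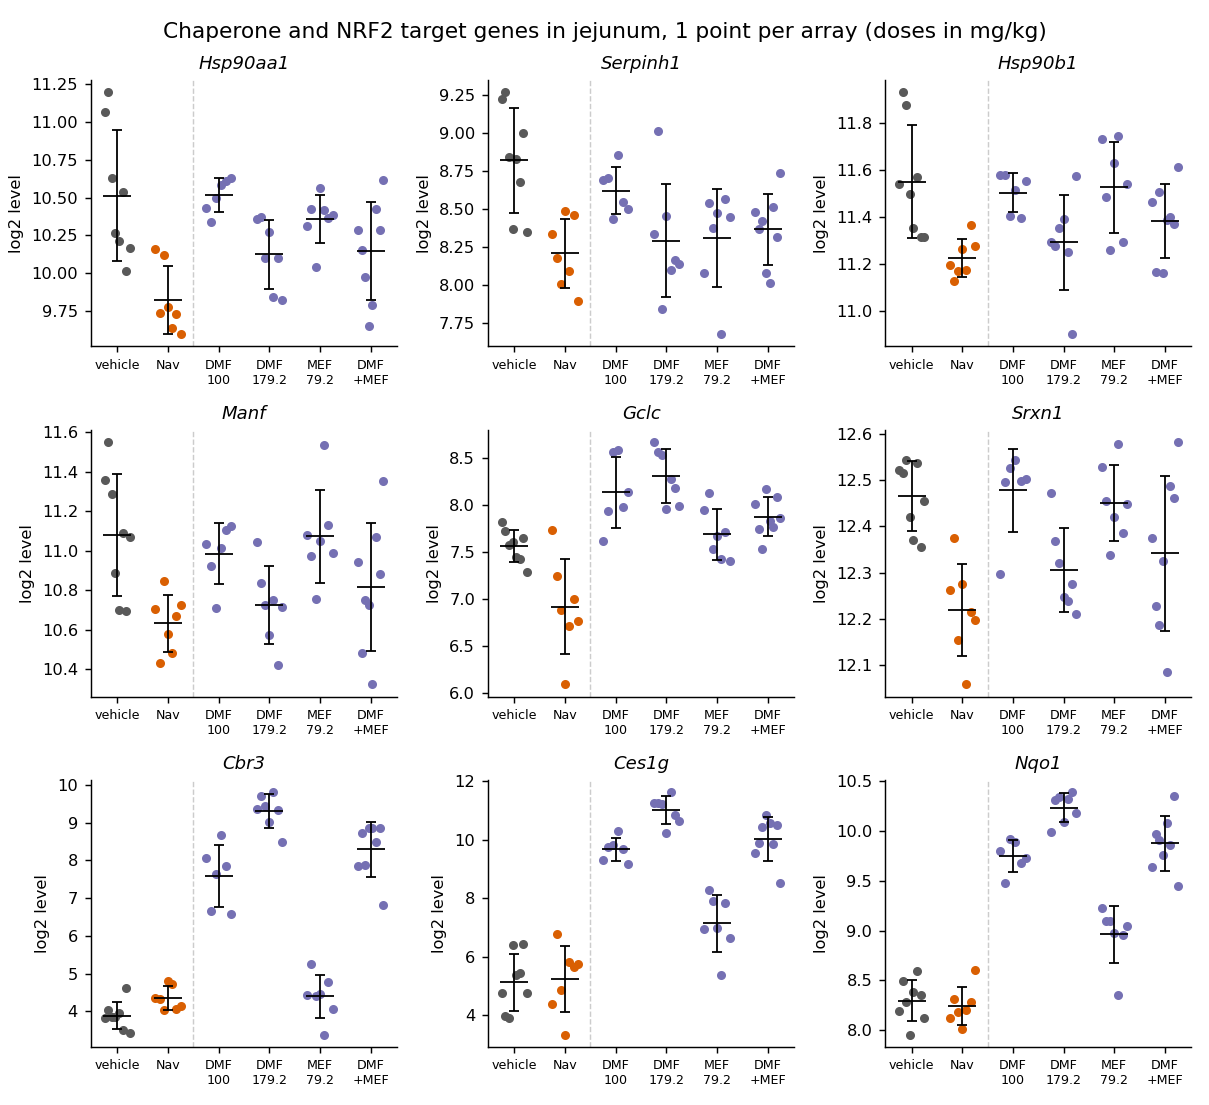
Log2 levels of 9 genes in the 43 jejunum arrays, 1 point per array, with the mean and SD of each group. Hsp90aa1, Serpinh1, Hsp90b1, Manf, Gclc and Srxn1 have their lowest group mean in Nav, while Cbr3, Ces1g and Nqo1 lie near vehicle in Nav and higher in the groups given DMF.

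In the comparison with the mean of the 4 fumarate groups, 933 genes (8.6%) differed from Nav in limma, 629 higher and 304 lower. The genes lowest in Nav by size were Ces1g (-4.22 ± 0.34), Akr1b8 (-3.39 ± 0.18), Cbr3 (-3.04 ± 0.23), the carboxylesterase Ces1f (-2.78 ± 0.20) and the glutathione transferase Gstm6 (-2.43 ± 0.47). Those highest, beside Kap, whose level was near the lowest value of the table in the fumarate groups, were the homeobox gene Hoxc8 (1.53 ± 0.48), 2610528A11Rik (1.22 ± 0.34), the chemokine Ccl8 (1.19 ± 0.36) and Dbp. Vehicle had the highest or lowest mean of the 6 jejunum groups, in the direction of the call, for 518 of the 854, and Nav for 508. These genes were picked because Nav and vehicle differ, which draws both groups towards the ends. The same count was not made over all genes, so it does not show which group departs. With the hybridisation covariate, 1113 genes were called between Nav and the fumarate groups.

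Of the 62 called genes picked by the rule for named genes, not all of which are described here, 19 were called with each of the 15 arrays left out in turn. Rnf125, a ubiquitin ligase that acts on the viral RNA sensor RIG-I, measured 7.56, 7.82 and 8.07 in Nav and 8.40, 8.78 and 9.43 in vehicle. It fell by 1.04 ± 0.20 (2.06-fold, adjusted p = 0.0052) without overlap. Nav1, the microtubule-binding neuron navigator 1, measured 3.81, 4.80 and 5.04 against 5.13, 5.49 and 5.76. It fell by 0.97 ± 0.20 (adjusted p = 0.0071), also without overlap. The labels give no relation between this gene and the title of the group.

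Ceacam1, an adhesion molecule of the epithelial surface, measured 10.48, 10.96 and 11.46 in Nav and 11.35, 11.78 and 12.23 in vehicle, and fell by 0.83 ± 0.19 (1.77-fold, adjusted p = 0.0127). Its 7 other probe sets were all lower in Nav at an unadjusted p below 0.05, and 6 of 7 Nav arrays lay below all vehicle arrays. In the mesenteric node Ceacam1 rose by 0.56 ± 0.17 (adjusted p = 0.0072), and the jejunum difference departed from that of the node by -1.31 ± 0.21 (adjusted p = 0.00039) and from that of kidney by -1.22 ± 0.11 (adjusted p = 9.8e-06), paired by replicate number. Other genes that fell without overlap were Themis3, of the thymocyte selection family (-0.85 ± 0.20), F2rl2, the protease-activated receptor 3 (-0.83 ± 0.19), and the laminin chain Lamc1 (-0.45 ± 0.12).

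The largest falls were less even across arrays. Tra2b, a splicing regulator, measured 4.13, 5.78 and 6.82 in Nav and 6.39, 7.49 and 7.94 in vehicle (fall of 1.65 ± 0.46, adjusted p = 0.0253), and Nr2c2, the nuclear receptor TR4, 6.11, 6.75 and 8.02 against 7.63, 8.19 and 8.38 (fall of 1.27 ± 0.34, adjusted p = 0.0213). Nr2c2 was lost without Nav replicate 47, and Tra2b without Nav replicate 43 or 47 or vehicle replicate 1, 2 or 3. Zfp800 (-1.04 ± 0.34) and the immediate early factor Klf4 (-0.28 ± 0.08) had the opposite sign in a brighter probe set of the same gene, so their direction depends on the probe set. Ccl28, an epithelial chemokine for IgA-secreting cells, fell by 0.73 ± 0.21 (adjusted p = 0.0327).

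Among the genes that rose, Cnnm3, of a family of magnesium transport mediators, measured 8.80, 9.35 and 9.71 in Nav and 8.21, 8.57 and 8.79 in vehicle. It rose by 0.80 ± 0.20 (1.75-fold, adjusted p = 0.0165) without overlap, though none of its 3 other probe sets was higher at an unadjusted p below 0.05. Icosl, the ligand of the T cell costimulator ICOS (0.77 ± 0.20, adjusted p = 0.0217), and the trophoblast glycoprotein Tpbg (0.79 ± 0.25, adjusted p = 0.0458) rose without overlap too, but with the mean of probe sets neither Icosl (0.32 ± 0.12, adjusted p = 0.0816) nor Tpbg (0.50 ± 0.17, adjusted p = 0.0568) passed. With each of the 15 arrays left out in turn, Icosl was called 11 times and Tpbg 3 times. Bco1, the enzyme that cleaves beta-carotene into retinal, measured 4.73, 5.34 and 6.71 against 4.33, 4.38 and 5.68 and rose by 0.89 ± 0.28 (adjusted p = 0.0430). It was also higher than in the fumarate groups (1.15 ± 0.23, adjusted p = 0.0017). Ypel4 rose by 0.97 ± 0.23 (adjusted p = 0.0127) and Gbp3, an interferon-induced GTPase, by 0.53 ± 0.16 (adjusted p = 0.0360). Gbp3 was the 1 called gene of 40 interferon-stimulated genes (2.5%, where 5.07% of all genes rose). Differences were below 0 for 25 of the 40, and their median was -0.11. Ypel4 was called with each array left out, Gbp3 in 6 of 15 such fits and Bco1 in 5.

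Kap, a gene of another organ, was higher in some Nav arrays. This kidney androgen-regulated protein is a product of the proximal tubule, with a mean log2 level of 13.24 in the 46 kidney arrays of the series. In jejunum it was at 10.51, 8.37, 6.58 and 4.96 in Nav replicates 46, 45, 43 and 44, at 2.42 in replicate 41 and at the lowest value, 2.13, in replicates 40 and 47. In vehicle, 7 of 8 arrays were at 2.13 and replicate 7 at 3.64. Kap was called (adjusted p = 0.0273, limma) and passed the filter on low values through Nav and other arrays outside vehicle, and since vehicle lay at the lowest value, the size of its difference is not given. The call was lost without Nav replicate 43, 45 or 46 or vehicle replicate 1, 2 or 3.

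Other kidney genes, a list of 9 written after the Kap values were seen, were read in the same arrays. Umod, made by the thick ascending limb and at 12.59 in kidney, was at 4.52 in Nav replicate 46 and 3.74 in Nav replicate 43, and at 2.13 in the other 5 Nav and all 8 vehicle arrays. Miox, of the proximal tubule, was at 3.65 in Nav replicate 43 and 2.65 in Nav replicate 46, but also reached 3.58 in vehicle. Slc12a1 was at 2.13 in all 15 arrays, and the log2 of the summed level of the 9 genes, Kap left out, was 6.43 to 6.81 in Nav and 6.42 to 6.56 in vehicle. By this sum, Nav replicates 43 (6.81) and 46 (6.75) were the highest of the 15 arrays, followed by Nav replicate 44 (6.59). Nav replicate 45, with Kap at 8.37, had a sum of 6.44, within the vehicle range. Napsa was highest in Nav replicates 44 (4.30) and 45 (3.95), and Slc22a12 was lowest in Nav replicate 45 (4.59). Whether these transcripts came from kidney tissue was not tested.

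Many groups of genes with roles in the jejunum held 0 called genes: 26 fat absorption and chylomicron genes, 25 brush border digestion and nutrient uptake genes, 14 bile acid genes, 19 cholesterol synthesis genes, 15 fatty acid synthesis genes, 26 PPAR-alpha and fatty acid oxidation genes, 20 metal handling genes, 15 targets of CAR and PXR, 6 of the aryl hydrocarbon receptor, 22 glucocorticoid-responsive genes, 24 mucin and glycosylation genes and 11 MHC class II genes. Over all genes 7.87% were called, so 0 calls in a short list says little about its members. Cell cycle genes (42) had 0 calls with a median of -0.10, and 31 of them were below 0, as were 4340 of the 10847 over all genes. Antimicrobial and acute phase genes (22) had 0 calls, though 19 were below 0. Among them Saa1, an acute phase protein, ran from 2.13 to 6.41 in Nav and from 2.73 to 10.20 in vehicle (-2.48 ± 1.06, adjusted p = 0.125), and the nitric oxide synthase Nos2 from 3.91 to 6.37 against 4.31 to 7.67 (-1.22 ± 0.58, adjusted p = 0.17).

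Of 57 respiratory chain genes, 3 rose (5.26%, where 5.07% of all genes rose). They were the complex I subunits Ndufb5 (0.18 ± 0.04, adjusted p = 0.0133) and Ndufa3 (0.11 ± 0.03, 0.0442) and the complex IV subunit Cox6c (0.18 ± 0.05, 0.0245). Of 31 proteasome genes, Psmd1 (-0.31 ± 0.08) and Psmd3 (-0.26 ± 0.07) of the regulatory cap fell and the ATPase Psmc4 rose (0.25 ± 0.07). This is 9.68% of the list, where 7.87% of all genes were called. Of 46 ribosomal protein genes, Rps2 fell by 0.22 ± 0.06 and was the 1 called gene (2.17%, where 2.8% of all genes fell).

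Set beside other tissues of the same groups, jejunum lay in the middle for the number of calls. Nav against vehicle gave 5401 genes in the mesenteric lymph node (50.6%), 5332 in kidney (49.8%), 1411 in spleen (13.4%), 412 in brain (3.83%), and 2 each in inguinal node (0.0189%) and blood (0.0193%). Of the 854 jejunal calls, 802 were tested in spleen, where 280 were called in the same direction and 0 in the opposite one. Of all genes tested in spleen, 8.07% were called higher and 5.31% lower. In kidney 796 were tested, with 229 called in the same and 152 in the opposite direction, where 30% of all genes were called higher and 19.8% lower. In the mesenteric node 796 were tested, with 220 and 170, where 29.8% of all genes were called higher and 20.8% lower. When the difference itself was tested over arrays paired by replicate number, it departed between jejunum and kidney for 2977 of 9695 genes (30.7%), between jejunum and node for 3433 of 9707 (35.4%) and between jejunum and spleen for 2 of 9606 (0.0208%). Those 2 were Pex11g and Alkbh3, neither of which was called without the pairing, and 1008 genes had an unadjusted p below 0.05.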

How the data were processed

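Total RNA was hybridised to Affymetrix mouse arrays, and the deposited log2 values were used as they stand. RMA, GCRMA, R 2.11.1 and limma 3.4.5 are named without roles in the submitters' processing notes. Each tissue appears to have been normalized apart, so levels were compared only within a tissue. Of 45141 probe sets, 28898 had 1 gene symbol, and each gene was represented by its probe set of highest mean level across the arrays of the series. Genes above 4.894 (the 50th percentile) in at least 5 jejunum arrays were tested.

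Groups were taken from the titles. A model with 1 mean per group over all 43 jejunum arrays was fitted in limma 3.58.1 (R 4.3.3), with Benjamini-Hochberg adjustment over all genes tested and 37 residual degrees of freedom. Named genes were up to 15 called each way by size, up to 4 called per list, and 14 fixed genes; others were chosen after their values were seen. Lists and groups were chosen with earlier results of these data known. Arrays of different tissues were paired by the number in their titles, taken to mark a mouse, which the labels do not state. On simulated data, 52% of genes changed 1.25-fold and 94% changed 2-fold were recovered. Alternatives covered filters, scaling, probe sets, covariates and each array left out. The number of arrays limits the precision.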

Additional observations from a re-analysis of the deposited data

Results flagged for a closer look

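Of 160 groups of values examined, 6 held an array whose gap to its neighbour was large for the group's range, where chance gives about 1 group in 20. Nav replicate 44 had the lowest correlation with its own group (0.977). Avil was highest in Nav replicate 44 (8.42), and Prdm1 (7.47) and the glucocorticoid-responsive Fkbp5 (8.64) stood apart in Nav replicate 40. In vehicle replicate 7, Kap was high (3.64) and Fabp6 low (7.93).

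Nav minus vehicle departed between jejunum and other tissues in a limma test of the difference, paired by replicate number. Against kidney, the genes with the largest positive departures were Kap (3.22, with 7 of 8 jejunal vehicle arrays at the lowest value of the table), Aldh1a3 (1.38), Tchh (1.34), Zfp62 (1.34) and Zfp943 (1.33). The largest negative ones were Tra2b (-1.40), Ceacam1 (-1.22), Apob (-1.08), Apol9a (-1.05) and Ddx10 (-1.03). Against the mesenteric lymph node, the positive ones were Gm6377 (1.84), Dse (1.69), Rgs13 (1.61), Atg10 (1.53) and Fbxo11 (1.53). The negative ones were Ceacam1 (-1.31), Defb1 (-1.28), Apol9a (-1.16), Kyat1 (-1.13) and Nfix (-1.03). Against spleen, Pex11g (0.87) and Alkbh3 (0.41) passed. For Ceacam1 and Apol9a, Nav minus vehicle was lower in jejunum than in both kidney and node. Apol9a was not called in jejunum (-0.53, adjusted p = 0.081, limma), and it rose in kidney (0.49) and in the node (0.52).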

How the results depend on the processing

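Without each array in turn, the genes called between Nav and vehicle numbered 298 to 1150. Testing every probe set gave 1782 calls and the hybridisation covariate gave 0. The other settings gave 578 (no filter on low values) to 1006 (array weights). The share of calls that were higher was 64.4%, but 49.7% with the mean of each gene's probe sets and 48.2% with every probe set, and the cause was not tested. The contrast with the fumarate groups gave 815 to 1231 calls.

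No paired analysis was possible because Nav and vehicle arrays of jejunum share no replicate number. Between tissues, the fit without the pairing by number (no replicate block) gave 2827 genes for kidney, 3249 for the mesenteric node and 0 for spleen (831 at an unadjusted p below 0.05). With arrays centred on the median, spleen also gave 0 (1099 at an unadjusted p below 0.05).

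Among named genes, all 62 calls ended with the hybridisation covariate, and 19 were kept without each array in turn. With the brightest probe set in jejunum, Zfp800 was at 0.18 and Klf4 at 0.0052, where both had been called lower. Genes that had not passed also turned sign. Gstm1 was at 0.035 with the mean of probe sets, 0.022 with the brightest and 0.070 with the hybridisation covariate. Fgf15 was at -0.18 with array weights and -1.28 with that covariate. Without each array in turn, Ces1g ranged from -0.16 to 0.41, Gstm1 from -0.12 to 0.088, Fabp6 from -1.52 to 0.15, Fgf15 from -0.17 to 0.40, Mt1 from -0.24 to 0.012.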

Other observations

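Genes whose symbol is Zfp followed by a number, which encode zinc finger proteins, were looked at after their values were seen, so the counts are a description. Of 199 tested, 38 were called higher in Nav (19.1%, against 5.07% of all genes) and 4 lower, and 150 of the differences were above 0. With arrays centred on the median there were 34 higher and 4 lower. With the hybridisation controls as a covariate 0 were called.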
